A study of Mus musculus with 2 samples.

Results

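The 36 genes described here encode the enzymes and transporters that turn glucose into lactate, the factors that sense oxygen, and genes that low oxygen is known to induce. They were chosen by name, with earlier results of these data known, and all 36 are among the 27998 genes of both count matrices, each under a symbol that occurs once. They comprise 4 glucose and lactate transporters, 17 glycolytic enzymes, 3 regulators of glycolytic flux, 3 oxygen-sensing genes and 9 other hypoxia-responsive genes.

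The data were single-cell RNA libraries of immune cells taken from B16Ova tumors, a mouse melanoma line that carries ovalbumin, grown under the flank skin of female mice for 13 days. Both groups carried floxed Tcf7 alleles (Tcf7 FL/FL). The wildtype group (WT) was E8i-cre-, and the knockout group (KO) was E8i-cre+, a driver active in mature CD8 T cells, so that the deletion was aimed at CD8 T cells and not at the other cells of the tumor. In each group 3 tumors were sorted into 4 categories (dendritic cells by a gate, CD4 T cells, CD8 T cells, and what was left of the CD45-positive fraction) and pooled into 1 library, so that animals cannot be told apart. WT against KO is therefore a comparison of 2 libraries with no replicates and no test, and intervals on it cover counting error only.

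Glycolysis splits glucose into pyruvate. Activated and dividing T cells and inflammatory myeloid cells are known to raise its enzymes and to send pyruvate on to lactate, which leaves the cell through monocarboxylate transporters. When oxygen is scarce the prolyl hydroxylases Egln1 and Egln3 no longer mark the transcription factor subunit Hif1a for destruction. Hif1a with its partner then binds the letters ACGTG or GCGTG (its hypoxia response element) and raises many of the same genes.

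The promoter windows of 7 members are printed because the results turn on these genes and because they differ in the ACGTG form, called the core from here on. Each runs from 250 bases before to 50 bases after a RefSeq transcription start on GRCm38.p6 (the assembly that mm10 also names), read 5′ to 3′ on the gene's strand, with ACGTG or its reverse complement in capitals. The windows of Ldha (lactate dehydrogenase A, chr7:46845554-46845853, plus strand), Pgk1 (phosphoglycerate kinase, chrX:106186850-106187149, plus strand), Pgam1 (phosphoglycerate mutase, chr19:41911621-41911920, plus strand) and Slc16a3 (a lactate exporter, chr11:120948817-120949116, plus strand) hold the core. So does that of Bnip3 (a mitophagy receptor, chr7:138909457-138909756, minus strand). Those of Tpi1 (triosephosphate isomerase, chr6:124814109-124814408, minus strand) and Eno3 (an enolase, chr11:70656926-70657225, plus strand) do not. The Eno3 window does hold 1 match of the other form, GCGTG, and the Tpi1 window holds 0.
Ldha: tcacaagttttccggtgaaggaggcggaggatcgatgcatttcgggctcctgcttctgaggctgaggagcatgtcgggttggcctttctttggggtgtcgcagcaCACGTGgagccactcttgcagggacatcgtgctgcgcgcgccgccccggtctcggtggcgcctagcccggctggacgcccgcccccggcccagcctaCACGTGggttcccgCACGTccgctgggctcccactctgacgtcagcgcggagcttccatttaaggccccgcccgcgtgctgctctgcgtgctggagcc
Pgk1: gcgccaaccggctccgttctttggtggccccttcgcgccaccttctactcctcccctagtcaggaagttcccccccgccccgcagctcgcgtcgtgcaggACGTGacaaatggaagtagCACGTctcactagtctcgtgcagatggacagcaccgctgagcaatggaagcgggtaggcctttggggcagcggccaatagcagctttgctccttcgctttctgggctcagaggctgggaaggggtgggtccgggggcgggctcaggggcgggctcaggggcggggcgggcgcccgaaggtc
Pgam1: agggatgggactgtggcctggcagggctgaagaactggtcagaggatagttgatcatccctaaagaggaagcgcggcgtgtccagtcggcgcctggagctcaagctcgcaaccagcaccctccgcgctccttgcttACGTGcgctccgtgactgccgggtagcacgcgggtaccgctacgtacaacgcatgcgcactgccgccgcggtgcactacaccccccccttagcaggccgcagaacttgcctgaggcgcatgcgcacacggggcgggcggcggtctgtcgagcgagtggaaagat
Slc16a3: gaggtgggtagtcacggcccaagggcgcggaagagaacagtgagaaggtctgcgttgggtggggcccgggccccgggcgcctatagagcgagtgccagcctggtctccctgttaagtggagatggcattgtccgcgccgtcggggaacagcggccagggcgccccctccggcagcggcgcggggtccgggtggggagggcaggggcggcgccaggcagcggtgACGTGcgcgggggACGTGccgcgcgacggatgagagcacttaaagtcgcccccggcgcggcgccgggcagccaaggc
Bnip3: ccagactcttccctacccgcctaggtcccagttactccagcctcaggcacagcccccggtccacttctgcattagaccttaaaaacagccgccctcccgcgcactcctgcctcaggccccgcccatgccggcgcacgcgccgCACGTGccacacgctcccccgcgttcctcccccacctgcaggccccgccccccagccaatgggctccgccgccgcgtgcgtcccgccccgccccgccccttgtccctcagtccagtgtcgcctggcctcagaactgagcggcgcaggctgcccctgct
Tpi1: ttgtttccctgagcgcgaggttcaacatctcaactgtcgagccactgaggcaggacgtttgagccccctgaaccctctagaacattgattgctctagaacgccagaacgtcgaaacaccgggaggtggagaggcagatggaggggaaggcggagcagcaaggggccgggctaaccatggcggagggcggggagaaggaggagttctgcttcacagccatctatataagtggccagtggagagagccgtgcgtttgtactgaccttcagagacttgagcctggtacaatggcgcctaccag
Eno3: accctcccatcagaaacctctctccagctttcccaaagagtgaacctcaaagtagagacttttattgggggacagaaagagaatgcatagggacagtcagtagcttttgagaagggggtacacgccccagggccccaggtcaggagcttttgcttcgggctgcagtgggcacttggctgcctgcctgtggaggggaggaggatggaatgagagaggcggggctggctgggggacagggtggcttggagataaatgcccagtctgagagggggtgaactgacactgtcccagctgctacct
Ldha held 5 matches, 2 pairs of which are the palindrome CACGTG read on both strands, and Bnip3 held 2 matches from 1 such palindrome. Where a gene had more than 1 window, the one with the most matches of the core was printed. The other Ldha window (chr7:46846832-46847131) holds 0. Of the 36 members, 33 had a window in the RefSeq table (Slc2a3, Bhlhe40 and Ndrg1 were not in it). The core was present in at least 1 window of 23 of these 33 genes (69.7%), against 5886 of all 27025 genes (21.8%). Counted by window, 26 of 47 member windows (55.3%) and 6447 of all 32851 windows (19.6%) held it. With GCGTG also counted, 39 of 47 member windows (83.0%) and 14380 of all 32851 (43.8%) held a match. Member promoters are rich in G and C, and among windows of at least 60% GC the shares that held ACGTG were 20 of 27 (74.1%) and 2568 of 9690 (26.5%). Windows were not matched for CG pairs, which ACGTG contains, and the part of base composition was not tested. Some members were chosen as genes that low oxygen is known to induce, so the difference in share is not independent of how the list was made. A match describes the letters and does not show that a factor binds there.

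After filtering, 988 of 1120 WT and 1086 of 1219 KO barcodes remained, at medians of 6179 and 8243 UMIs (unique molecular identifiers, which count RNA molecules), and the libraries shared 1 barcode. The 36 members held 85375 UMIs in WT and 112428 in KO, 0.938% and 0.970% of all UMIs. Cells were placed in classes by markers that include no member: CD8 or CD4 T cells by a UMI of that co-receptor alone, naive-like or effector by which of 2 marker lists had more UMIs, regulatory T cells (Tregs) by Foxp3 among effector-like cells without Cd8a or Cd8b1, cycling cells by mitosis and DNA synthesis genes, and myeloid classes by their own lists. Classes were drawn on these same markers, so that a class carries them is no separate check of what its cells are. Of the 8 cDC2 markers 2 were at 0 in WT and 1 was in KO. Of 841 non-cycling T cells 37 lay within 2 UMIs of the naive-effector tie. Tcf7, the targeted gene, stood at 453 CPM (UMIs of a gene scaled to the same total in every class) in WT and 333 in KO CD8 naive-like cells, and at 149 and 56.5 in CD8 effector cells. It was also lower in KO in CD4 effector cells, at 172 and 78.2 CPM, in which the driver is not known to act. The deleted exons are not given in the sources used here, so Tcf7 UMIs do not show how many cells had lost the gene.

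The summed share of UMIs that came from the 17 glycolytic enzymes put the classes in a wide order. CD8 naive-like cells stood at 0.285% in WT (33 cells) and 0.224% in KO (38 cells), and CD4 naive-like cells at 0.349% (40 cells) and 0.312% (53 cells). Naive-like T cells without a co-receptor UMI stood at 0.284% in KO (67 cells) but at 0.572% in WT (36 cells), so low values were not shared by every naive-like group. CD8 effector cells stood at 0.688% (126 cells) and 0.846% (107 cells), and CD8 cycling cells at 1.14% (16 cells) and 1.08% (43 cells). In both libraries the CD8 order was thus naive-like, effector, cycling, and the counting intervals of neighbours did not overlap.

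CD4 effector cells stood at 0.841% in WT (65 cells) and 1.16% in KO (79 cells), and Tregs at 1.31% (76 cells) and 1.27% (43 cells). Tregs exceeded CD4 effector cells 1.56-fold in WT (95% interval 1.49 to 1.64) and 1.10-fold in KO (1.06 to 1.15). Among the myeloid classes the lowest share was in mature dendritic cells (DCs), which express Fscn1 and Ccr7 and are known to migrate to lymph nodes, at 0.395% (89 cells) and 0.453% (50 cells). Macrophages were the highest immune class but for cycling CD4 T cells in KO, at 1.41% (25 cells) and 1.37% (40 cells). The CD4 cycling class was small, with 11 WT and 18 KO cells at 1.39% and 1.43%.

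Type 1 conventional DCs (cDC1s, which cross-present antigen) stood at 0.607% in WT (143 cells) and 0.626% in KO (152 cells). Cycling cDC1s stood at 0.622% (19 cells) and 0.599% (29 cells), so the ratio of cycling to other cDC1s was 1.02 in WT (0.980 to 1.07) and 0.956 in KO (0.922 to 0.992). The step from CD8 effector to CD8 cycling cells, 1.66-fold in WT (1.59 to 1.73) and 1.27-fold in KO (1.23 to 1.31), had no counterpart of that size in cDC1s. CD8 cycling cells were also far deeper than CD8 effector cells, at medians of 20050.5 and 21020 against 4685 and 6580 UMIs. For cDC1s these medians were 20477 and 23140 in cycling and 15604 and 16127 in other cells. CD8 effector cells above their median depth stood at 0.74% and 0.95%, and CD8 cycling cells at or below theirs at 0.74% and 0.96%. The part of depth in these ratios was not tested. The few melanoma cells that passed the sort had the highest share of any class, 3.58% in 16 WT cells and 2.81% in 14 KO cells. The median over single melanoma cells was 2.28% and 1.68%, and 1 WT cell held 124 of the 195 Pgk1 UMIs. Cells differed within a class: the middle 50% of WT macrophages ran from 0.837% to 2.09% and that of WT CD8 effector cells from 0.321% to 0.712%.

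**Figure D1:**
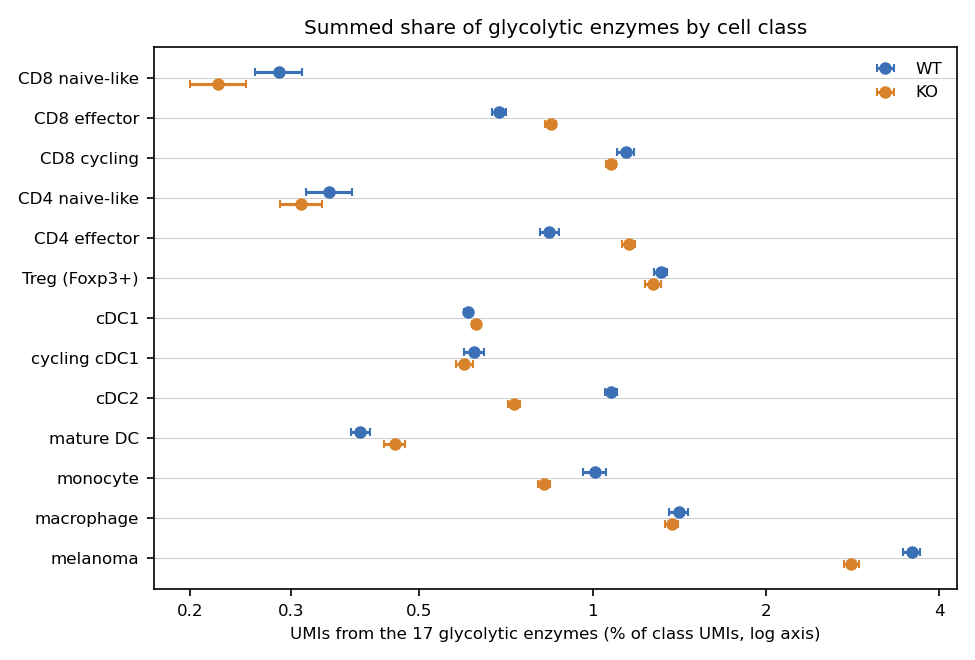
Percent of UMIs from the 17 glycolytic enzymes in each marker-gated class (vertical axis) for the WT and KO libraries, with exact binomial 95% intervals that cover counting error only. CD8 and CD4 naive-like T cells and mature DCs lie between 0.224% and 0.453%, while macrophages lie at 1.41% and 1.37% and melanoma cells at 3.58% and 2.81%.

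CD8 effector cells were compared with CD8 naive-like cells to see which members differ with antigen experience. Of the 33 members with enough counts to test (Pfkm, Slc16a1 and Adm were too low), 11 were higher in effector cells and 0 lower, at an adjusted p under 0.05 and at least 1.5-fold. Among all 7429 genes tested 4.48% were called higher and 3.30% lower. The 11 were 8 enzymes (Pfkp, Aldoa, Tpi1, Gapdh, Pgk1, Eno1, Eno3 and Ldha), the lactate exporter Slc16a3, and 2 hypoxia-responsive genes, Higd1a (a mitochondrial inner membrane protein) and Bhlhe40 (a transcriptional repressor that activated T cells express).

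Ldha, which makes lactate from pyruvate, stood at 342 CPM in WT and 475 in KO naive-like cells and at 957 and 1416 in effector cells. The effector values lay above both naive-like values, by 2.80-fold within WT (2.11 to 3.79) and 2.98-fold within KO (2.33 to 3.87), with a fitted log2 difference of 1.32 (adjusted p = 0.0020, edgeR's quasi-likelihood test). Tpi1, which interconverts the products of aldolase, rose from 78.9 and 42.5 CPM to 372 and 574, a fitted log2 difference of 2.72 (adjusted p = 0.011). Pgk1, which makes the first ATP of the pathway, rose from 98.6 and 56.7 CPM to 301 and 372 (log2 difference 1.88, adjusted p = 0.0062). Gapdh, the step before it, rose from 480 and 333 CPM to 1556 and 1699 (log2 difference 1.78, adjusted p = 0.0058), and is therefore not a constant reference between these classes. Eno1, which makes phosphoenolpyruvate, had the smallest called difference, 381 and 284 CPM against 705 and 785 (log2 difference 0.94, adjusted p = 0.0010).

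Some of the called genes were almost absent from naive-like cells, and their folds are only bounded. Slc16a3 had 0 UMIs in naive-like cells of either library, which allows up to 3, and 21 and 41 UMIs (27.5 and 44.6 CPM) in effector cells, at least 1.40-fold and 2.10-fold higher (adjusted p = 0.020). Bhlhe40 had 4 and 0 UMIs in naive-like cells and 158 and 245 in effector cells. Its ratio was 7.88 in WT (3.02 to 29.3), and it was at least 12.5-fold higher in KO (adjusted p = 0.015). Eno3, the enolase typical of muscle, had 1 and 0 UMIs against 41 and 56, a ratio of 8.18 in WT (1.39 to 331) and at least 2.86-fold in KO (adjusted p = 0.0040).

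The remaining roles did not move as a block. None of the 3 flux regulators (Pdk1, Pfkfb3, Pfkfb4) and none of the 3 oxygen-sensing genes was called. Counts of these genes are low, and a gene that was not called here or in later contrasts is not shown to be unchanged. Pdk1, a kinase that inhibits pyruvate dehydrogenase, stood at 52.6 and 35.5 CPM in naive-like and 30.1 and 16.3 in effector cells, opposite in sign to the enzymes but not called. Hif1a stood at 105 and 56.7 CPM against 151 and 140, and the glucose transporter Slc2a1 at 39.4 and 35.5 against 35.4 and 42.4. The neuron-type glucose transporter Slc2a3 had 1 and 0 UMIs in naive-like and 37 and 48 in effector cells, and was not called either.

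The median log2 difference of the 33 members was 1.42, or 1.23 with genes near 0 held at their bounds, and that of all genes 0.16. This overall median moved with the scaling, to 0.39 by library size alone and 0.00 with DESeq2, and the share of all calls that were higher was 57.6%, 80.0% and 37.8% in turn, while 14 and 9 members were called higher and 0 lower under these alternatives. The 2 libraries of this test differ in genotype, so they are not replicates of 1 condition and the test covers what they share. Median depth was 4439 and 3681 UMIs in naive-like and 4685 and 6580 in effector cells.

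CD4 effector cells and Tregs were each compared with CD4 naive-like cells, which both comparisons share. In CD4 effector cells 14 members were higher and 0 lower (1.83% and 2.05% of all genes), and in Tregs 19 were higher and 0 lower (4.91% and 3.90%). Enzymes made up 9 of the 14 and 12 of the 19. Tpi1 stood at 53.6 and 86.1 CPM in naive-like cells, 515 and 696 in effector cells (log2 difference 2.90, adjusted p = 0.0075) and 861 and 925 in Tregs (3.41, adjusted p = 0.0010). Pgam1 stood at 91.9 and 59.2 CPM, 263 and 475 (2.19, adjusted p = 0.023) and 516 and 555 (2.66, adjusted p = 0.0026). For both enzymes the libraries of the 3 classes did not overlap.

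Both lactate export and glucose import had a called transporter in each CD4 comparison. Slc16a3 had 0 UMIs in naive-like cells of both libraries, against 14 and 48 in effector cells and 77 and 57 in Tregs, so it was at least 2.05-fold and 5.81-fold higher in effector cells (adjusted p = 0.0016) and at least 7.46-fold and 12.6-fold higher in Tregs (adjusted p = 3.0e-06). Slc2a1, the main glucose importer of activated T cells, stood at 23.0 and 10.8 CPM in naive-like cells, 67.4 and 80.1 in effector cells (adjusted p = 0.046) and 125 and 74.7 in Tregs (adjusted p = 0.0041). The naive-like values rest on 3 and 2 UMIs.

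Hif1a was called in both, from 169 and 140 CPM in naive-like cells to 367 and 420 in effector cells (log2 difference 1.2, adjusted p = 0.0027) and 547 and 555 in Tregs (1.64, adjusted p = 1.0e-05). Bnip3, which carries 2 matches of the core in the window above, had 1 and 2 UMIs in naive-like cells and 105 and 45 in Tregs, a ratio of 30.5 in WT (5.36 to 1216) and 14.9 in KO (3.89 to 127), with an adjusted p of 1.1e-04. In CD4 effector cells Bnip3 stood at 60.6 and 72.3 CPM and was not called. Ddit4, an inhibitor of the growth kinase mTORC1, was called in Tregs at 988 and 761 CPM against 146 and 253 (log2 difference 1.90, adjusted p = 0.033). Whether Tregs differ from CD4 effector cells was not tested for any gene.

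Bhlhe40 was also higher in both, at 23.0 and 5.38 CPM in naive-like cells, 219 and 418 in effector cells (adjusted p = 0.0068) and 303 and 135 in Tregs (adjusted p = 0.015). The medians of the members were 1.48 and 1.86, or 1.2 and 1.63 with genes near 0 at their bounds, against 0.10 and 0.12 for all genes. The flux regulators were again without a call. Pdk1 stood at 61.3 and 43.0 CPM in naive-like cells, 33.7 and 41.0 in effector cells and 51.2 and 35.6 in Tregs.

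**Figure D2:**
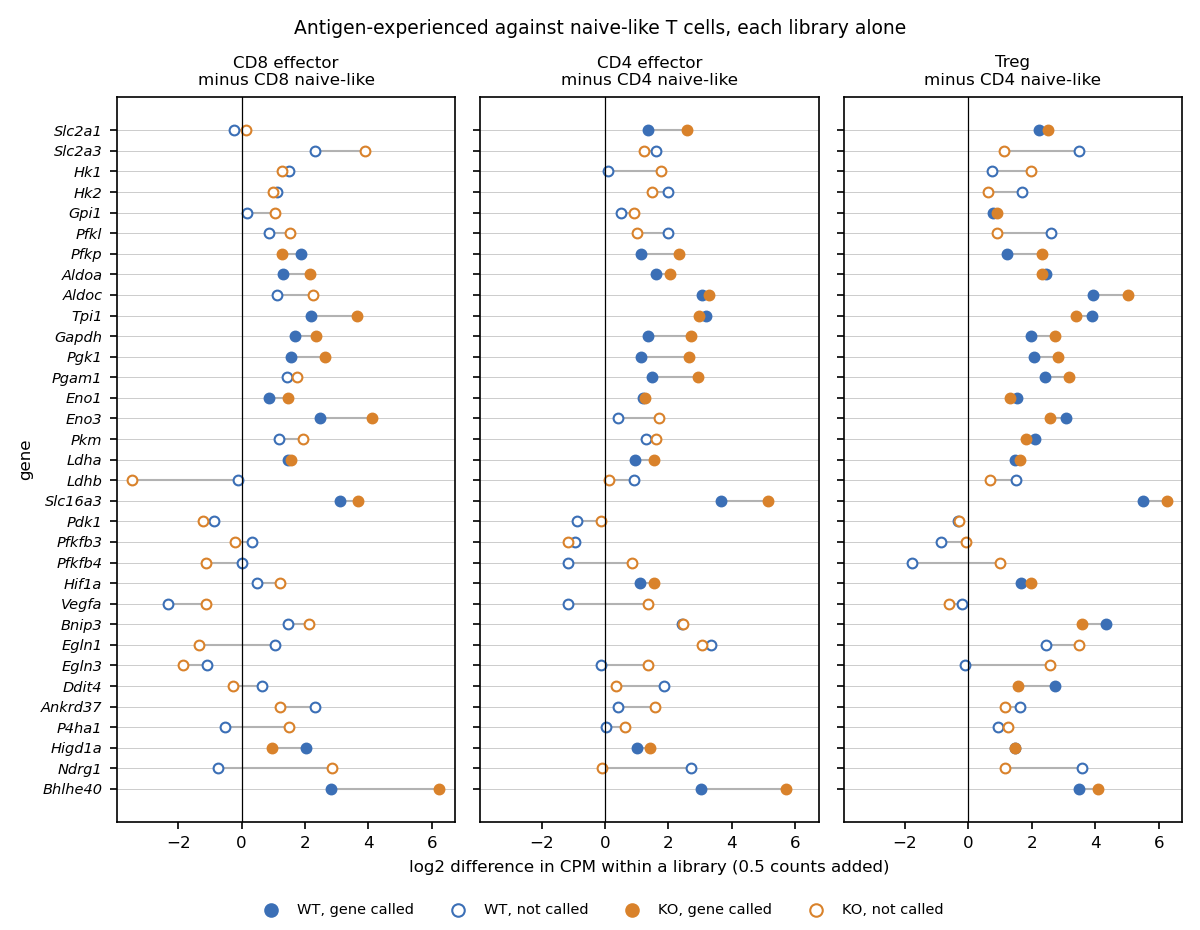
Log2 difference in CPM within each library (horizontal axis) for the 33 tested members, in CD8 effector against CD8 naive-like, CD4 effector against CD4 naive-like and Treg against CD4 naive-like cells, with filled points for genes called over both libraries. Called genes, 11, 14 and 19 in turn, all lie right of 0, and genes near 0 UMIs in naive-like cells such as Slc16a3 are drawn with 0.5 counts added and show bounds only.

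Cycling was compared with effector state among CD8 T cells to see whether dividing cells carry more of the pathway. Ldha was the 1 member called higher, at 957 and 1416 CPM in effector and 2108 and 2162 in cycling cells (log2 difference 0.73, adjusted p = 0.033), and 0 were lower. Of all genes 5.92% were called higher and 6.45% lower. The values of other enzymes were also above those of effector cells in both libraries without being called, as for Tpi1 at 742 and 752 CPM and Pgk1 at 563 and 524. The median of the members was 0.15, and that of all genes -0.16. Cycling cells were far deeper, with medians of 20050.5 and 21020 UMIs, and with every cell thinned to 2000 UMIs 3 members were called.

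In CD4 cycling cells, fitted with a lower minimum of 10 cells, Pgk1 was higher (log2 difference 0.72, adjusted p = 0.046) and Hif1a lower (-0.94, adjusted p = 0.0028) than in CD4 effector cells, against 6.56% and 7.73% of 7464 genes. Between cycling and other cDC1s 0 of 33 members were called in either direction (5.67% and 1.02% of all genes). DESeq2 called 0 there as well, but 4 members were called lower with no filter on low counts, 3 by cluster and 1 at a minimum of 10 cells. The median of the members was -0.37, or -0.20 with genes near 0 at their bounds.

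Mature DCs had members both below and above cDC1s. Of 33 members 10 were lower and 6 higher, where 16.6% and 19.9% of all genes were called, so the 6 were near the share of all genes. Mature DCs were also shallower, at medians of 7648 and 8874 UMIs against 15604 and 16127, and 5 members were called lower with every cell thinned to 2000 UMIs. The 10 lower genes were 6 enzymes (Hk2, Gpi1, Pfkp, Aldoc, Pgam1, Ldha), the regulators Pdk1 and Pfkfb4, and P4ha1 and Higd1a. Ldha fell from 1406 and 1309 CPM in cDC1s to 243 and 272 in mature DCs, a fitted log2 difference of -2.15 (adjusted p = 3.2e-07). Pfkp, the platelet-type phosphofructokinase, fell from 220 and 300 CPM to 46.5 and 51.3 (-2.15, adjusted p = 8.3e-10). For both genes the mature DC values lay well below those of either cDC1 library.

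Against this, Eno3 rose from 15.1 and 10.0 CPM in cDC1s to 323 and 310 in mature DCs, 21.4-fold in WT (14.8 to 31.9) and 31.0-fold in KO (19.98 to 49.96), with an adjusted p of 2.1e-17. Pfkfb3, which makes the activator of phosphofructokinase, rose from 15.1 and 15.4 CPM to 160 and 232 (log2 difference 3.90, adjusted p = 2.0e-14), while its paralog Pfkfb4 fell from 22 and 32 UMIs to 1 and 0 (adjusted p = 0.015). Bhlhe40 rose from 35.6 and 31.3 CPM to 311 and 234 (3.27, adjusted p = 2.6e-05), and Ndrg1, a stress-responsive gene, from 53.4 and 45.9 to 121 and 152 (1.69, adjusted p = 6.5e-04). Tpi1, at 302 and 293 CPM against 257 and 276, was not called. The called rise of Hif1a rested on WT (37.4 to 91.6 CPM), as KO held 47.5 and 49.0, and that of Vegfa rested on 8 UMIs of WT mature DCs.

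cDC2s (Cd209a- and Sirpa-positive DCs that prime CD4 T cells) were compared with the same cDC1s. Of 33 members 12 were higher and 0 lower (9.36% and 4.51% of all genes). They were the transporters Slc2a1 and Slc16a3, the enzymes Hk1, Pfkl and Eno1, Hif1a and Egln3, and Vegfa, Bnip3, Ankrd37, P4ha1 and Bhlhe40. Slc16a3 stood at 31.5 and 25.9 CPM in cDC1s and 190 and 106 in cDC2s (log2 difference 2.31, adjusted p = 1.9e-07). Egln3, whose message Hif1a is known to raise, had 4 and 5 UMIs in cDC1s and 24 and 13 in cDC2s, a ratio of 21.9 in WT (7.53 to 86.9) and 6.93 in KO (2.32 to 24.8), with an adjusted p of 2.9e-05. Few cells carried it: 7 of 45 WT and 5 of 67 KO cDC2s had a UMI, and 1 KO cell held 7 of the 13. Ldha was not called, and its libraries went opposite ways: 1406 and 1309 CPM in cDC1s, 1614 and 1074 in cDC2s. DESeq2 called 7 of the 12, as did the fit on thinned cells.

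Macrophages (C1qa- and Apoe-positive) and monocytes (Ly6c2- and Ccr2-positive) were compared as the tissue and blood-derived ends of one lineage. Ldha, Pdk1, Bnip3 and Egln3 were higher in macrophages and Pfkp lower, where 3.77% and 3.97% of all genes were called. The Pdk1 call rested mainly on KO, with 6 UMIs in monocytes and 20 in macrophages (ratio 7.12, 2.76 to 21.7). In WT Pdk1 had 2 and 4 UMIs (1.905, 0.273 to 21.1). Bnip3 stood at 137 and 91.6 CPM in monocytes and 477 and 394 in macrophages (log2 difference 2.01, adjusted p = 1.2e-04), so the classes did not overlap. Egln3 rose from 1 and 12 UMIs (5.69 and 14.9 CPM) to 10 and 32 UMIs (54.2 and 84.6 CPM, adjusted p = 0.0061). The top macrophage held 5 of the 10 UMIs in WT and 9 of the 32 in KO, so this rise may rest on few cells. Pfkp fell from 142 and 168 CPM to 70.5 and 95.1 (log2 difference -0.86, adjusted p = 0.042), a call that DESeq2 did not make. With classes drawn by cluster, which put 71 WT and 63 KO cells among macrophages, 16 members were called higher.

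Over 5 myeloid classes against 5 non-cycling T cell classes, 13 members were higher and 5 lower in myeloid cells, against 21.5% and 22.6% of all genes. Lower calls were thus no more frequent among the members than among all genes. The lower genes were Slc2a3, Ldhb (the heart-type lactate dehydrogenase), Pdk1, Hif1a and Ddit4. Hif1a stood at 37.4 to 173 CPM over the myeloid classes and libraries and at 56.7 to 555 over the T cell classes (fitted log2 difference -1.06, adjusted p = 1.5e-09).

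**Figure D3:**
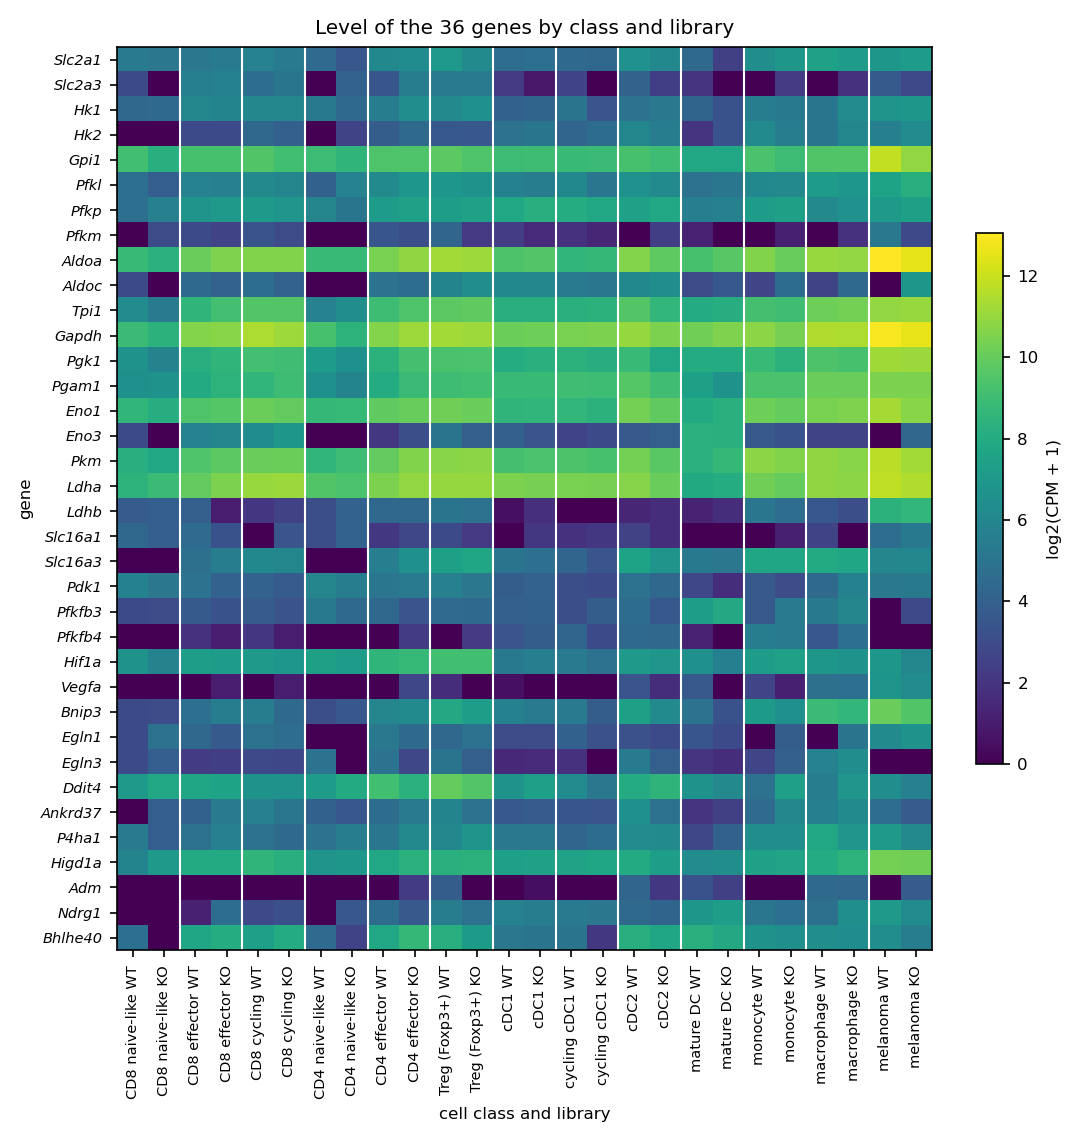
Log2 of CPM plus 1 (colour, brighter where higher) for each member (rows) in each class and library (columns). Naive-like T cells are low in most rows, Eno3 and Pfkfb3 are highest in mature DCs at 310 to 323 and 160 to 232 CPM, and Slc2a3 is near 0 in myeloid columns.

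Paralogs of the same step were used in different proportion by different classes. The values are shares of the UMIs of a gene pair, uncorrected for length, and are read only between classes. Slc2a3 made up 57.8% of Slc2a1 plus Slc2a3 UMIs in WT and 55.2% in KO CD8 effector cells, but 0% of 32 and 1.79% of 56 UMIs in macrophages. Hk2, the inducible hexokinase, made up 9.26% and 10.0% of Hk1 plus Hk2 in CD8 effector cells and 65.0% and 65.3% in cDC1s. The intervals of the classes did not overlap in either pair.

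Eno3 made up 55.9% (50.9 to 60.9) and 49.6% (43.6 to 55.7) of Eno1 plus Eno3 UMIs in mature DCs, against 7.08% and 7.198% in CD8 effector cells. Pfkp made up 80.9% and 86.7% of Pfkl plus Pfkp in cDC1s and 33.3% and 45.6% in macrophages. Pfkfb4 made up 40.0% and 46.4% of Pfkfb3 plus Pfkfb4 in cDC1s and 0.901% and 0% in mature DCs. Ldhb was at 8.51% and 12.2% of Ldha plus Ldhb in melanoma cells, and below 1.49% in CD8 effector cells. Reads of near-identical copies may be split: over the classes Eno1 had 14958 UMIs and the copy Eno1b 1928, and Pgk1 had 8040 and Pgk1-rs7 624. The strand setting is not stated, so reads of members that overlap another gene, such as Bhlhe40 and 0610040F04Rik or Slc2a1 and Gm12867, may also be shared.

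**Figure D4:**
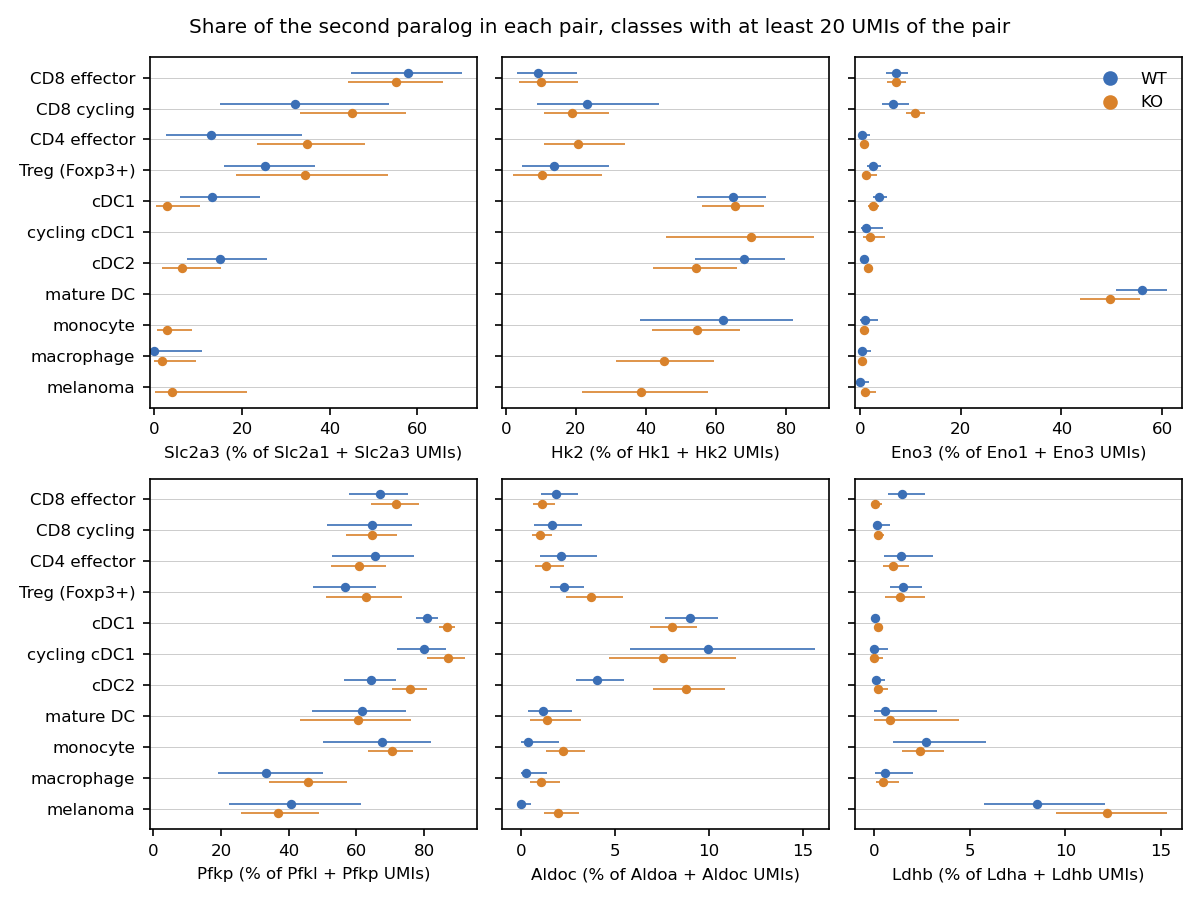
Share of a paralog pair's UMIs held by the gene named in each panel (horizontal axis, percent) by class for WT and KO, with exact binomial 95% intervals. Mature DCs stand apart for Eno3 (55.9% and 49.6%) and CD8 effector cells for Slc2a3 (57.8% and 55.2%).

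KO was set beside WT within each class for the members with at least 50 UMIs over both libraries, with 0.5 UMIs added to each library where members past 1.5-fold were counted. The deletion was aimed at CD8 T cells, and so at the CD8 naive-like, effector and cycling classes alike. In CD8 effector cells 4 of 22 members were at least 1.5-fold higher in KO and 0 were lower (6.89% and 5.66% of all genes with 50 UMIs). The median log2 ratio was 0.25, beside 0.04 for all genes. Tpi1 stood at 372 CPM in WT and 574 in KO, a ratio of 1.54 (1.33 to 1.79), and P4ha1 at 28.8 and 50, a ratio of 1.73 (1.02 to 3.03). The interval for Slc16a3, 1.62 (0.935 to 2.88), includes 1. Of the 42 Bnip3 UMIs in KO, 15 came from 1 cell, and by the mean of each cell's CPM its log2 ratio was -0.38.

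The makeup of the CD8 effector class also differed between the libraries, and its part in the ratios was not tested. Of the KO cells 38 of 107 fell in 1 cluster of deep effector cells, at a median of 11811 UMIs, against 19 of 126 WT cells at 11524 UMIs. Within that cluster WT stood at an enzyme share of 0.967% and KO at 1.02%, and within the largest other cluster (68 and 39 cells) it was 0.510% and 0.505%. Some gated effector cells fell in clusters named for other cells, and these differed in both directions. Those in the naive-like T cell cluster stood at 0.399% and 0.248% (13 and 11 cells). Those in the NK cell cluster stood at 0.377% and 0.487% (7 and 7 cells). A further 8 KO cells lay in the cycling cluster, at 1.03%. The KO over WT ratio of the enzyme share was 1.23 (1.19 to 1.28) over the whole class. In CD8 naive-like cells that ratio was 0.785 (0.677 to 0.910), and 1 of 7 members was higher (Ddit4, 131 and 227 CPM) and 1 lower (Gpi1, 539 and 298 CPM), where 6.62% and 4.11% of genes were. In CD8 cycling cells 1 of 20 was higher (Bhlhe40, 163 and 263 CPM) and 1 lower (Ankrd37, 51.2 and 34.1 CPM), where 8.89% and 8.12% were.

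Differences of similar or larger size stood in classes in which the driver is not known to act. In CD4 effector cells 7 of 19 members were higher in KO and 1 was lower (9.48% and 8.17% of all genes), with a median log2 ratio of 0.48. Pgk1 stood at 330 and 588 CPM, a ratio of 1.78 (1.41 to 2.26), and Bhlhe40 at 219 and 418, a ratio of 1.91 (1.44 to 2.56). Ddit4 went the other way, at 542 and 325 CPM (0.598, 0.479 to 0.748). The makeup of CD4 effector cells differed too, and its part was not tested. In the deep effector cluster lay 17 of 79 KO and 5 of 65 WT cells, at enzyme shares of 1.47% and 1.08%. The main cluster (46 KO and 52 WT cells) stood at 0.817% and 0.766%.

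In cDC2s 10 of 23 members were lower in KO and 0 higher (6.47% and 7.33%), with a median of -0.52. Pgk1 stood there at 446 and 219 CPM, a ratio of 0.490 (0.406 to 0.592).

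The cDC2 difference depended on how the class was drawn. With classes by cluster (69 WT and 111 KO cells) 0 members were past 1.5-fold and the median was -0.13, and the enzyme share was 0.900% and 0.811% in place of 1.08% and 0.730%. Among the gated cDC2s of 1 cluster (36 WT and 63 KO cells) it was 1.01% and 0.743%. T cells without a co-receptor UMI that were naive-like had 6 of 8 members lower in KO and 0 higher (18.5% and 7.09% of all genes), with a median of -1.09, and 2 lower and a median of -0.39 by cluster. In WT of that class 1 cell held 48 of 142 Ldha UMIs, and fibroblast and endothelial markers made up 0.0552% of UMIs against 0.0062% in KO. Genes of the dissociation response were higher in WT in these classes, at 0.442% and 0.318% of UMIs in cDC2s, 0.488% and 0.272% in cDC1s and 0.333% and 0.142% in CD8 naive-like cells, and their part in the result was not tested. In cDC1s, the deepest of the large classes, 1 of 28 members was higher (Ddit4, 105 and 165 CPM) and 0 lower (4.21% and 3.96%), with a median of 0.05. In Tregs, 1 of 21 was higher and 2 lower (7.17% and 5.42%), among them Bhlhe40 at 303 and 135 CPM.

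The other classes had few members past 1.5-fold, and Ddit4 was the most frequent among them. In CD4 naive-like cells Ddit4 was higher in KO, at 146 and 253 CPM, and Gapdh lower, at 613 and 344, among 7 members (4.44% and 7.16% of all genes). In macrophages Ddit4 was higher, at 43.4 and 111 CPM, and P4ha1 lower, at 217 and 111, among 17 members (10.4% and 9.66%). In monocytes Ddit4, with 5 UMIs in WT and 131 in KO, and Ankrd37, with 4 and 50, were higher and Bnip3, at 137 and 91.6 CPM, was lower among 20 members (11.6% and 6.22%). All of these directions but that of Ankrd37 turned in these macrophages and monocytes when classes were drawn by cluster, with log2 ratios of -1.02 for Ddit4 and 0.04 for P4ha1 in macrophages and -0.58 for Ddit4 and 0.33 for Bnip3 in monocytes.

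Ddit4 went the other way in mature DCs, at 105 and 69.1 CPM, where 3 of 17 members were lower and 0 higher (7.37% and 5.28%). The others were Pgam1, at 170 and 102 CPM, and Hif1a, at 91.6 and 49.0. It was also the 1 of 12 members lower in cycling cDC1s, at 78.4 and 35.0 CPM, where 0 were higher (5.84% and 4.4%). In effector T cells without a co-receptor UMI Pgam1, Pkm and Higd1a were higher and Ddit4 lower among 12 members (7.0% and 7.88%). Single KO cells held 79 of 174 Pkm, 21 of 48 Pgam1 and 24 of 48 Higd1a UMIs in that class, and macrophage markers made up 0.0187% of its UMIs in KO and 0 in WT. The part of these cells and markers in the result was not tested.

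**Figure D5:**
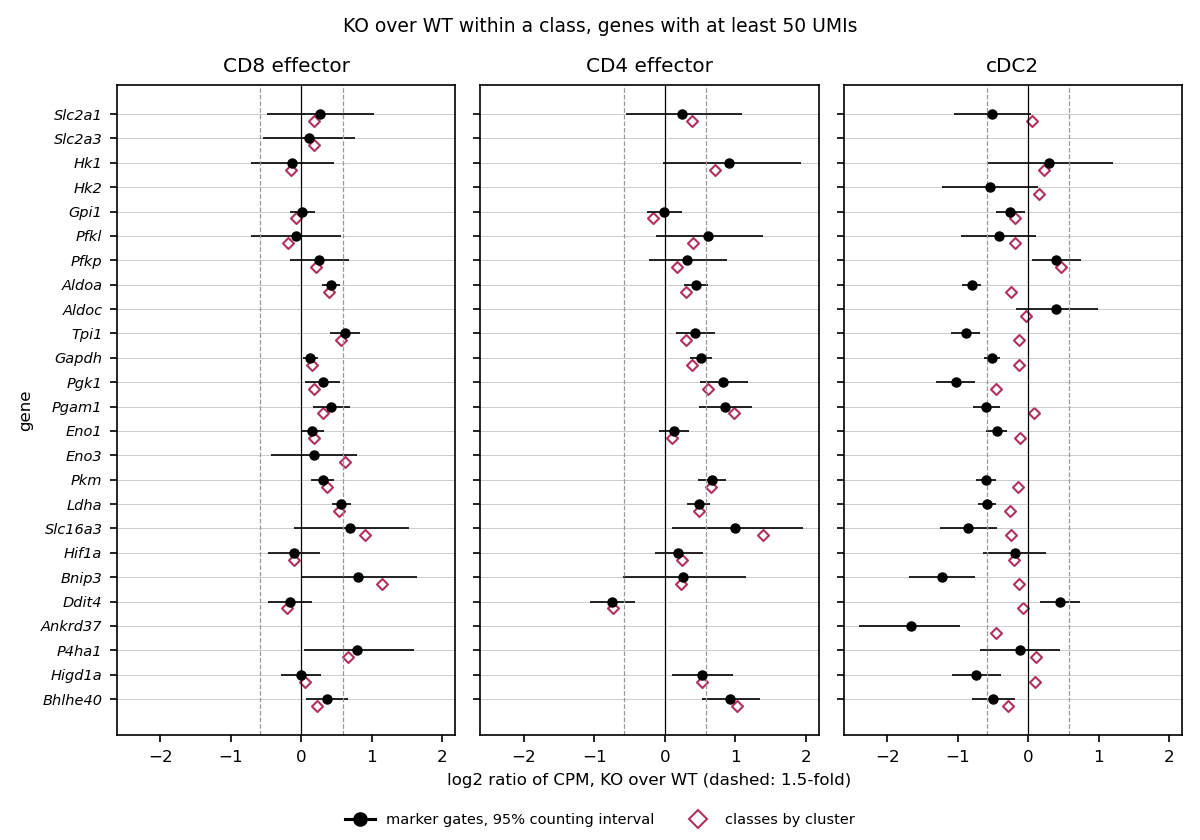
Log2 of KO over WT CPM (horizontal axis) for members with at least 50 UMIs in CD8 effector cells, CD4 effector cells and cDC2s. Points with 95% counting intervals are marker gates and open diamonds are classes drawn by cluster. In cDC2s the gated values lie mostly left of 0, with a median of -0.52, and the diamonds near it, with a median of -0.13.

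Other genes of these pathways came from lists of further glycolysis genes, the pentose phosphate branch, regulators of hypoxia-inducible factors and their other targets. Among CD8 effector against naive-like cells 0 of 14 further glycolysis genes, 1 of 7 pentose phosphate genes, 2 of 8 regulators and 0 of 22 other targets were higher, and 0 of each were lower, where 4.48% and 3.30% of all genes were. In Tregs over CD4 naive-like cells 0 of 14, 1 of 7, 1 of 8 and 3 of 22 were higher in the same order and 0 lower (4.91% and 3.90%). Tkt, transketolase of the pentose phosphate branch, stood at 131 and 85.1 CPM in CD8 naive-like and 253 and 325 in effector cells (log2 difference 1.18, adjusted p = 0.0019). It was also called higher in CD4 effector cells and Tregs over CD4 naive-like cells, and in CD8 cycling over CD8 effector cells. Plin2, a lipid droplet coat protein, had 0 UMIs in CD4 naive-like cells of both libraries and 37 and 22 in Tregs, at least 3.58-fold and 4.85-fold higher (adjusted p = 0.0010).

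In macrophages over monocytes 6 of 22 other targets were higher and 0 lower, where 3.77% and 3.97% of all genes were. Among them were Arg1, which breaks down arginine, with 35 and 368 UMIs against 0 and 1 (adjusted p = 0.0023), and Hmox1, which breaks down heme (log2 difference 3.78, adjusted p = 0.0039). The Hmox1 ratio was 51.8 in WT (28.7 to 104) and 5.13 in KO (4.09 to 6.48). From the other lists Rbx1, Tceb2 and Pgm2 were higher. Taldo1 (log2 difference -1.09, adjusted p = 7.3e-05) and Pgm1 (-2.01, adjusted p = 0.043) were lower. In mature DCs over cDC1s Cd274 (which encodes the checkpoint ligand PD-L1), the hexose transporter Slc2a6 and Mxi1 had the highest called differences, at 4.16, 3.63 and 3.38 on the log2 scale. Hk3, Taldo1 and Adpgk had the lowest. Taldo1 and Adpgk stood at -2.20 and -2.18, and Hk3 had 19 and 41 UMIs in cDC1s and 0 in mature DCs of either library. Between the libraries, Hilpda, a lipid droplet gene that low oxygen induces, stood at 17.04 CPM in WT and 54.3 in KO CD8 effector cells (ratio 3.19, 1.71 to 6.40) and at 78.3 and 15.6 in cDC2s (0.199, 0.101 to 0.367). Mif, a cytokine, stood at 670 and 1270 CPM in CD4 effector cells (1.90, 1.61 to 2.23).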

How the data were processed

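The authors deposited 1 matrix of UMI counts per library, whole numbers per gene and cell that had not been normalized. Cell Ranger 1.3 and mm10 are named per the submitters' processing notes, while the matrix header names a later software version; the aligner, annotation release, read end and strand setting are not given in the sources used here. Cells under 500 UMIs or 300 genes, or over 10% mitochondrial UMIs, were left out. Classes were gated on marker UMIs. No doublet caller was run, and cells with both T cell and antigen-presenting markers were left out of the classes. Counts were summed per class and library (at least 15 cells) and class contrasts were fitted with edgeR 4.0.16 (quasi-likelihood, TMM scaling, library as a term, Benjamini-Hochberg adjustment over all 7429 genes) in R 4.3.3. A call needs an adjusted p under 0.05 and 1.5-fold, and edgeR's test gives every adjusted p in the text. The fit was checked on simulated data for CD8 effector against CD8 naive-like cells, where it missed most of the changed genes. A gene that was not called is therefore not shown to be unchanged. KO against WT has 1 library a side, so CPM ratios have exact 95% intervals and no test. Every member could be named; of other pathway genes, the 3 highest and 3 lowest called per contrast, and the 2 highest and 2 lowest KO over WT ratios. DESeq2 1.42.0 and clusters from scanpy 1.11.5 were alternatives. The lower cell minimum, cycling cDC1s, single clusters, the share without Gapdh and leaving out the top cell were added after seeing the data. The members and lists were chosen with earlier results of these data known.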

Additional observations from a re-analysis of the deposited data

Results flagged for a closer look

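Some members lay past 1.5-fold in opposite directions between KO and WT in different classes. With 1 library a genotype the difference between classes was not tested. Values are KO over WT ratios of CPM. Tpi1 stood at 1.54 in CD8 effector cells, 0.171 in naive-like T cells without a co-receptor UMI and 0.542 in cDC2s. Pgk1 stood at 1.78 in CD4 effector cells and 0.490 in cDC2s. Pgam1 stood at 1.81 in CD4 effector cells and 2.43 in effector T cells without a co-receptor UMI, and at 0.603 in mature DCs and 0.663 in cDC2s. Pkm stood at 1.59 and 2.13 in those same 2 effector classes, 0.434 in naive-like T cells without a co-receptor UMI and 0.660 in cDC2s. Slc16a3 stood at 1.99 in CD4 effector cells and 0.556 in cDC2s. Ddit4 stood at 2.56 in macrophages, 5.70 in monocytes and 1.57 in cDC1s, and at 0.598 in CD4 effector cells, 0.650 in effector T cells without a co-receptor UMI and 0.447 in cycling cDC1s. P4ha1 stood at 1.73 in CD8 effector cells and 0.512 in macrophages. Bhlhe40 stood at 1.91 in CD4 effector and 1.61 in CD8 cycling cells and at 0.447 in Tregs. Several of these contrasts depend on how the classes were drawn. By cluster the log2 ratios in cDC2s were within 1.5-fold, at -0.13 for Tpi1, -0.45 for Pgk1, 0.09 for Pgam1, -0.15 for Pkm and -0.24 for Slc16a3, so the opposite direction in cDC2s was lost past 1.5-fold, and Pgam1 turned. By cluster Ddit4 turned in macrophages (-1.02) and monocytes (-0.58), P4ha1 stood at 0.04 in macrophages, and Ddit4 at -0.22 in cycling cDC1s. In effector T cells without a co-receptor UMI Pgam1 stood at 0.16 and Pkm at 0.11 by cluster, and single KO cells held 21 of 48 Pgam1 and 79 of 174 Pkm UMIs there.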

How the results depend on the processing

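Of the fold changes of called members under the alternatives, 783 stayed on the same side of the threshold, 62 did not and 0 reversed. Those 62 include 3 with KO left out and 2 with WT left out, settings without a test and so without a call to lose. On thinned cells 61 stayed and 16 did not, and the remaining called values had no result there. In CD8 cycling over effector cells the 1 member called higher became 2 with library size scaling, 3 with no filter, 3 by cluster, 3 on thinned cells and 0 at 2-fold. In macrophages over monocytes the 4 higher became 16 by cluster and 7 on thinned cells, and the 1 lower became 0 with DESeq2, with no replicate block (no library term), on thinned cells and at 2-fold. In mature DCs the 10 lower became 5 on thinned cells. In cDC2s over cDC1s the 12 higher became 7 with DESeq2 and 7 on thinned cells, and the 0 lower became 1 with no filter, 1 by cluster and 1 at 10 cells. In cycling cDC1s the 0 lower became 4 with no filter, 3 by cluster and 1 at 10 cells. In myeloid against T cells the 5 lower became 2 on thinned cells. The cause was not tested. Leaving out a library gives values and no test. For KO over WT, CD4 effector cells had 7 members higher, 0 at 2-fold, 4 at 100 UMIs and 4 by mean cell CPM, and 1 lower, 0 at 2-fold and 2 by mean cell CPM. CD8 effector cells had 4 higher, 0 at 2-fold and 1 at 100 UMIs. In naive-like T cells without a co-receptor 2 were lower by cluster, with a median of -0.39. In cDC2s 3 were lower at 2-fold and 0 by cluster, with a median of -0.13. Among members past 1.5-fold, log2 ratios that changed sign were Bnip3 in CD8 effector cells (-0.38 by mean cell CPM), Ankrd37 in CD8 cycling cells (0.20 without the top cell) and Higd1a in effector T cells without a co-receptor (-0.10 without the top cell). By cluster they were Ddit4 (-1.02) and P4ha1 (0.04) in macrophages, Bnip3 (0.33) and Ddit4 (-0.58) in monocytes, Higd1a (-0.47) in effector T cells without a co-receptor, and Pgam1 (0.09) and Higd1a (0.10) in cDC2s.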
